A study of Mus musculus with 21 samples.

Results

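The genes described here encode the receptor for type I interferon and the kinases and transcription factors through which it and other cytokine receptors signal. They are Ifnar1, Ifnar2, Jak1, Jak2, Jak3, Stat2, Stat3, Stat4 and Stat6, 9 genes chosen by name out of the 750 on the panel. The study measured immune and tumor genes with a NanoString PanCancer panel, in which barcoded probes count RNA molecules without amplification, in RNA of whole mouse tumors. The tumors grew in the right flank from implanted LLC (Lewis lung carcinoma) cells, which are a lung cancer line of the mouse. The question named for the series is how transcription changes once STING, the adaptor of cytosolic DNA sensing encoded by Tmem173, is activated.

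All hosts were male mice of the C57BL/6 strain, and their age is not given in the labels. The 21 libraries form 3 groups. The wild-type sham group held 9 tumors of wild-type hosts injected with PBS. The wild-type agonist group held 8 tumors of wild-type hosts injected with a STING agonist, named in the series design as cGAMP, with no dose or time stated in the labels. The STING-deficient sham group held 4 tumors of hosts with the genotype Knockout (TMEM173gt), also injected with PBS. That allele affects the host alone, so the LLC cells carried their own Tmem173 in all groups. The design has no agonist-treated STING-deficient group, and a comparison of agonist tumors with STING-deficient tumors changes treatment and host genotype together. Whether every library stands for its own mouse is not in the labels, and p-values therefore cover only how far these samples scatter, which may be technical. In whole tumors, fewer cells of a type and less RNA per cell cannot be told apart.

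Type I interferon binds the paired chains IFNAR1 and IFNAR2, which activates kinases of the JAK family bound to them. The kinases phosphorylate STAT proteins, and a complex of STAT2, a partner STAT and IRF9, called ISGF3, then switches on antiviral genes. The same kinases and other STATs serve the receptors of interferon-gamma, interleukins and colony-stimulating factors, which steer T cells, NK cells and myeloid cells in tumors.

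Each library's deposited values stepped in units of its own, from which counts could be recovered, and these counts summed to between 256573 and 763977 per library. The authors' normalized totals ranged from 240633 to 299484 in wild-type sham, from 249154 to 888242 in wild-type agonist and from 225810 to 286507 in STING-deficient sham libraries. On this scale the median log2 change of the 689 genes tested was 0.98 after agonist. Every comparison is therefore given also after TMM scaling, which sets the libraries so that most genes are on balance level, and there the median was 0.13. The tissue label is lung, and of 7 lung epithelium markers only Foxj1 was on the panel, at 3.24 to 8.90 in wild-type sham tumors. On the authors' scale alone, Tmem173 had a mean signal of 54.2 in wild-type sham, 115 in wild-type agonist and 50.4 in STING-deficient tumors. Wild-type sham tumors ranged from 41.8 to 77.8 and STING-deficient tumors from 42.6 to 69.4. Agonist replicates 1 to 5 ranged from 40.6 to 87.7, and replicates 6 to 8 gave 154, 188 and 250. The Tmem173 probe does not check a point mutation.

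After agonist all 9 genes were higher than in wild-type sham tumors on the authors' scale (limma adjusted p below 0.05 for each), where 71.1% of all tested genes were higher. The share among the members is thus read against a panel in which most genes were called higher. Their median log2 change was 0.84, beside 0.98 for the panel. Stat4, Jak2, Jak3 and Stat2 had the largest changes and Jak1 and Stat6 the smallest. After TMM scaling only Stat4 was higher, and Jak1 and Stat6 were lower, with 10.2% of tested genes higher and 16.5% lower. The directions of Ifnar1, Ifnar2, Jak1, Stat3 and Stat6 turned between the scalings.

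Ifnar1, the receptor chain needed for the type I interferon response, had a normalized signal of 320 to 442 with a median of 400 in wild-type sham tumors. It ranged from 378 to 1531 with a median of 707 after agonist, and was 413, 307, 348 and 376 in the STING-deficient tumors. The groups overlapped, since agonist replicates 4 and 5 lay within the sham range and the other 6 lay above it. The log2 change after agonist was 0.79 ± 0.21 (SE, adjusted p = 0.00457). After TMM scaling it was -0.07 (adjusted p = 0.683).

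Ifnar2, the chain that binds interferon with high affinity, ranged from 167 to 283 with a median of 233 in wild-type sham tumors and from 252 to 834 with a median of 430 after agonist. The STING-deficient tumors gave 189, 164, 165 and 241. Agonist replicates 3, 4 and 5 stayed within the sham range, and 2 of the 4 STING-deficient tumors were below it. The log2 change after agonist was 0.84 ± 0.22 (adjusted p = 0.00441), and -0.03 after TMM scaling (adjusted p = 0.905). Both chains thus had similar changes on each scale. The log2 ratio of Ifnar1 to Ifnar2 within a library, which no scaling can alter, averaged 0.72 ± 0.29 in the 9 wild-type sham libraries (SD), 0.67 ± 0.20 (n = 8) after agonist and 0.94 ± 0.22 (n = 4) in STING-deficient tumors. The 3 ranges of that ratio overlapped.

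**Figure D1:**
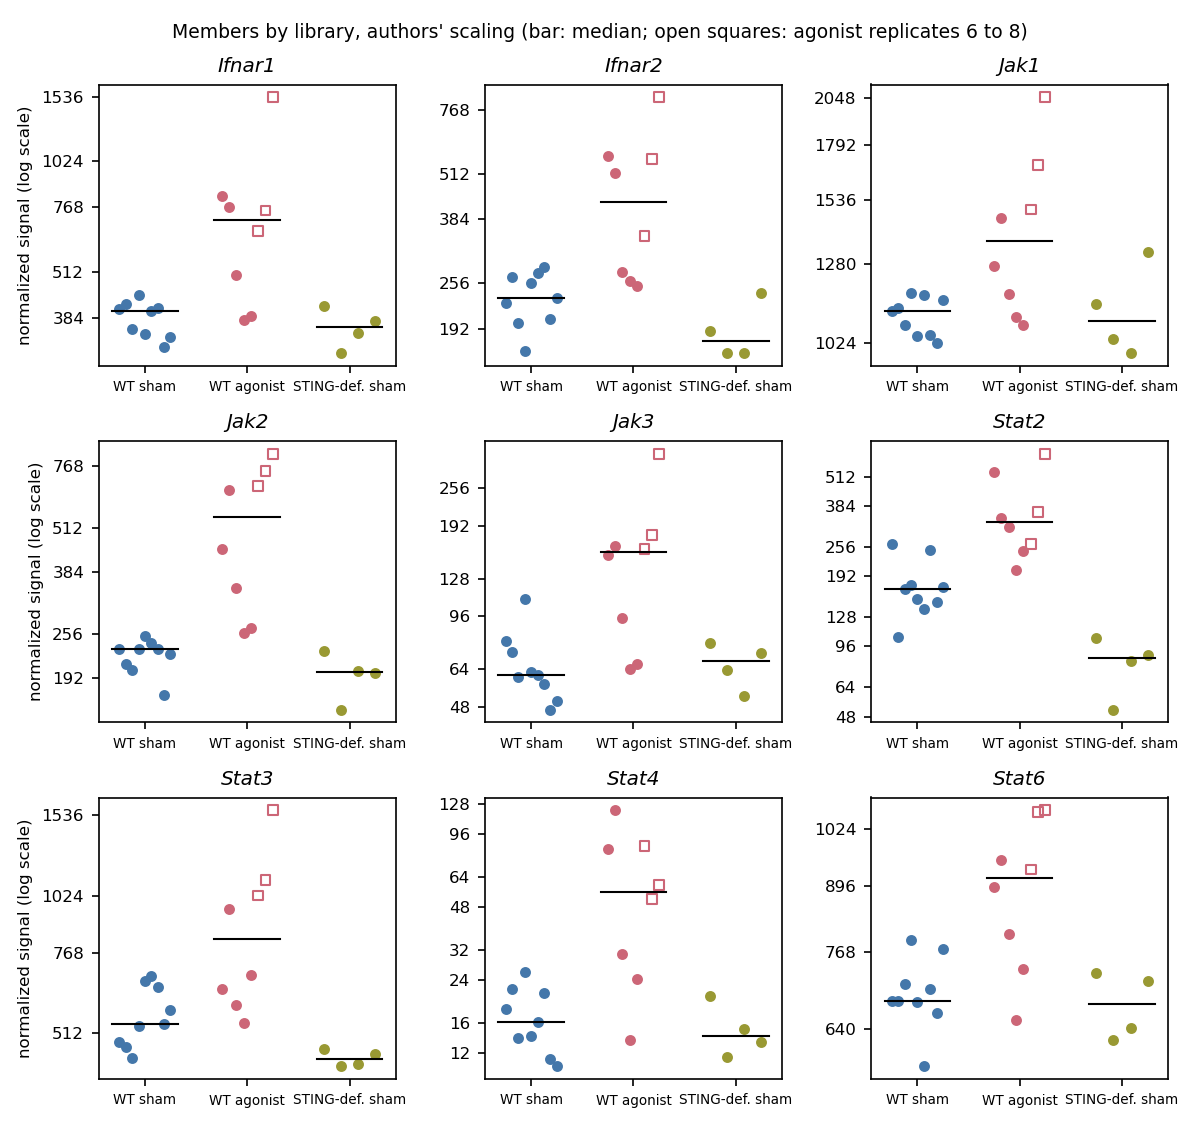
Normalized signal (log axis) of each of the 9 genes in the 9 wild-type sham, 8 wild-type agonist and 4 STING-deficient sham libraries, with a bar at each median and open squares for agonist replicates 6 to 8. All 8 agonist libraries lie above the sham libraries for Jak2, and all 4 STING-deficient libraries lie below the wild-type sham libraries for Stat2.

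Among the kinases, Jak1, which serves both interferon receptors and many interleukin receptors, ranged from 1022 to 1179 with a median of 1119 in wild-type sham tumors. After agonist it ranged from 1076 to 2053 with a median of 1365, and it was 1143, 1036, 994 and 1324 in STING-deficient tumors. Agonist replicates 3, 4 and 5 lay within the sham range. The log2 change was 0.33 ± 0.13 (adjusted p = 0.0321), smaller than that of most genes: 18.6% of tested genes had a lower one. After TMM scaling Jak1 was lower, by a log2 change of -0.54 ± 0.16 (adjusted p = 0.0184), with 6 of 8 agonist libraries below every sham library.

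Jak2, the kinase of the interferon-gamma, interleukin-12 and GM-CSF receptors, ranged from 171 to 252 with a median of 231 in wild-type sham and from 257 to 830 with a median of 549 in agonist tumors. The STING-deficient tumors gave 229, 156, 200.5 and 197. The agonist libraries all lay above the sham libraries, without overlap, as was so for 1.16% of tested genes. The margin was narrow, since the lowest agonist value, in replicate 4, was 257 beside a highest sham value of 252. The log2 change was 1.12 ± 0.22 (adjusted p = 0.00276). After TMM scaling the change was 0.26 ± 0.13 (adjusted p = 0.14), and 6 of 8 agonist libraries stood above the sham range and 1 below it.

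Jak3, which pairs with the shared interleukin receptor chain encoded by Il2rg in lymphocytes, ranged from 46.9 to 109 with a median of 61.0 in wild-type sham tumors. It ranged from 63.9 to 333 with a median of 157 after agonist, and was 78.0, 63.6, 52.1 and 72.2 in STING-deficient tumors. Agonist replicates 3, 4 and 5 stayed within the sham range. The log2 change was 1.03 ± 0.27 (adjusted p = 0.00454), and 0.17 ± 0.16 after TMM scaling (adjusted p = 0.44).

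Stat2, the part of ISGF3 that carries its activation domain, ranged from 105 to 263 with a median of 170 in wild-type sham and from 204 to 641 with a median of 327 in agonist tumors. It was 104.5, 51.4, 82.9 and 87.9 in the STING-deficient tumors. Agonist replicates 4 and 5 overlapped with sham, while the 4 STING-deficient tumors lay below every wild-type sham tumor. The log2 change after agonist was 1.0 ± 0.23 (adjusted p = 0.00285), and 0.14 ± 0.19 after TMM scaling (adjusted p = 0.603).

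Stat3, the factor of interleukin-6 and interleukin-10 signaling, ranged from 453 to 684 with a median of 537 in wild-type sham and from 538 to 1572 with a median of 821 in agonist tumors. The STING-deficient tumors gave 473, 434, 439 and 462, of which 2 lay below the wild-type range. Agonist replicates 1, 3 and 4 stayed within the sham range. The log2 change was 0.59 ± 0.18 (adjusted p = 0.00958), and -0.28 ± 0.16 after TMM scaling (adjusted p = 0.195).

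Stat4, the factor that interleukin-12 activates in T and NK cells, was read at a low signal of 10.6 to 25.9 and a median of 16.1 in wild-type sham tumors. After agonist it ranged from 13.6 to 121 with a median of 55.5, and it was 20.6, 11.5, 15.0 and 13.3 in STING-deficient tumors. Agonist replicates 4 and 5 lay within the sham range and the other 6 above it. The lowest sham value rested on 12 recovered counts, with an exact 95% Poisson interval of 5.45 to 18.4 in signal units that covers counting error only. The log2 change of 1.50 ± 0.34 (adjusted p = 0.00276) exceeded that of 84.8% of tested genes. After TMM scaling it was 0.66 ± 0.23 (adjusted p = 0.0373), with 3 of 8 agonist libraries above the sham range. That call was lost on leaving out 1 library in 8 of 21 cases, namely wild-type sham replicates 3, 5, 6, 8 and 9 and agonist replicates 1, 2 and 6, with a change of 0.49 to 0.76 over all 21.

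Stat6, the factor of interleukin-4 and interleukin-13 signaling, ranged from 587 to 790 with a median of 683 in wild-type sham and from 654 to 1071 with a median of 913 in agonist tumors. The STING-deficient tumors gave 730, 624, 641 and 717. Agonist replicates 4 and 5 lay within the sham range. The log2 change was 0.33 ± 0.12 (adjusted p = 0.0193), and -0.53 ± 0.16 after TMM scaling (adjusted p = 0.0183), with the same 6 of 8 agonist libraries below the sham range as for Jak1. The TMM calls of Jak1 and Stat6 held on leaving out each of the 21 libraries.

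**Figure D2:**
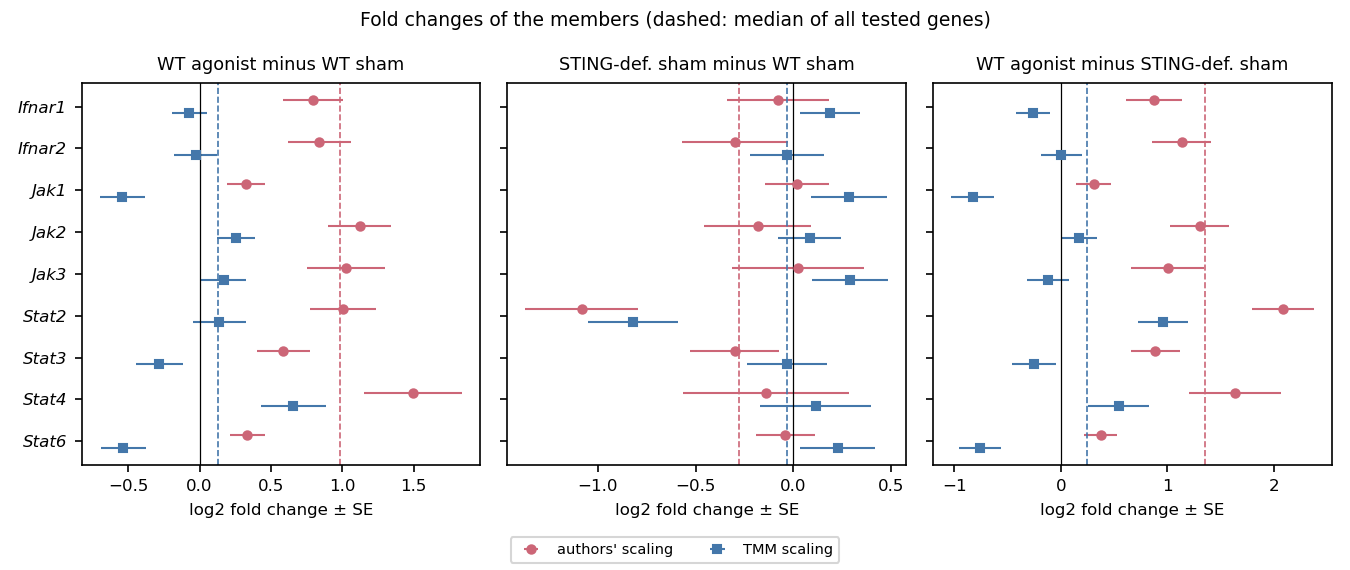
Log2 fold change ± SE (horizontal axis) of the 9 genes in the 3 comparisons from limma, on the authors' scale (circles) and after TMM scaling (squares), with dashed lines at the median of all 689 tested genes. After agonist the circles all lie above 0, while the squares of Jak1 and Stat6 lie at -0.54 and -0.53 and that of Stat4 at 0.66.

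The agonist libraries were uneven, in the 9 genes as in the whole panel. Agonist replicates 2, 6, 7 and 8 had 9 of 9 members above every wild-type sham library, replicate 1 had 8, replicate 3 had 5, replicate 5 had 2 and replicate 4 had 1. Of all tested genes 80.7%, 71.0%, 42.8%, 5.81%, 15.8%, 79.7%, 79.2% and 76.5% were above the sham range in agonist replicates 1 to 8. After TMM scaling the members above that range numbered 1, 2, 1, 1, 0, 2, 1 and 3 in the same order, and those below it 5, 2, 3, 0, 0, 5, 2 and 2. Of all tested genes 28.6%, 38.3%, 19.2%, 11.5%, 8.85%, 30.7%, 24.7% and 35.4% were then above it. Those below it were 28.3%, 28.4%, 20.9%, 9.72%, 8.42%, 27.6%, 26.9% and 33.4%. From agonist replicate 1 to 8, the members lay above their sham mean by a mean log2 difference of 1.04, 1.17, 0.44, 0.03, 0.21, 1.0, 1.16 and 1.65. The median shift of all tested genes was 1.49, 1.22, 0.38, -0.06, 0.15, 1.32, 1.23 and 1.61 in the same order. Replicates 4 and 5 were close to sham by both measures. The files give agonist replicates 6 to 8 to 2 decimals, in contrast to the more exact values of all other libraries. Without these 3 libraries 0 of the 9 members were called by limma, with adjusted p from 0.0536 to 0.284, and 3 genes of the whole panel were called. At an unadjusted p below 0.05, 6 members were higher without them on the authors' scale, as were 48.2% of tested genes. After TMM scaling 1 member was higher and 2 were lower at that threshold, beside 7.55% of tested genes higher and 14.9% lower. On the recovered counts edgeR called 0 members and 0 of all tested genes. On the authors' scale the log2 changes without these 3 libraries were 0.51 for Ifnar1, 0.60 for Ifnar2 and 0.13 for Jak1. Jak2 had 0.74, Jak3 0.62, Stat2 0.87, Stat3 0.26, Stat4 1.25 and Stat6 0.20. After TMM scaling those of Ifnar1, Ifnar2, Jak1, Stat3 and Stat6 were below 0. The part of the number format in these results was not tested.

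**Figure D3:**
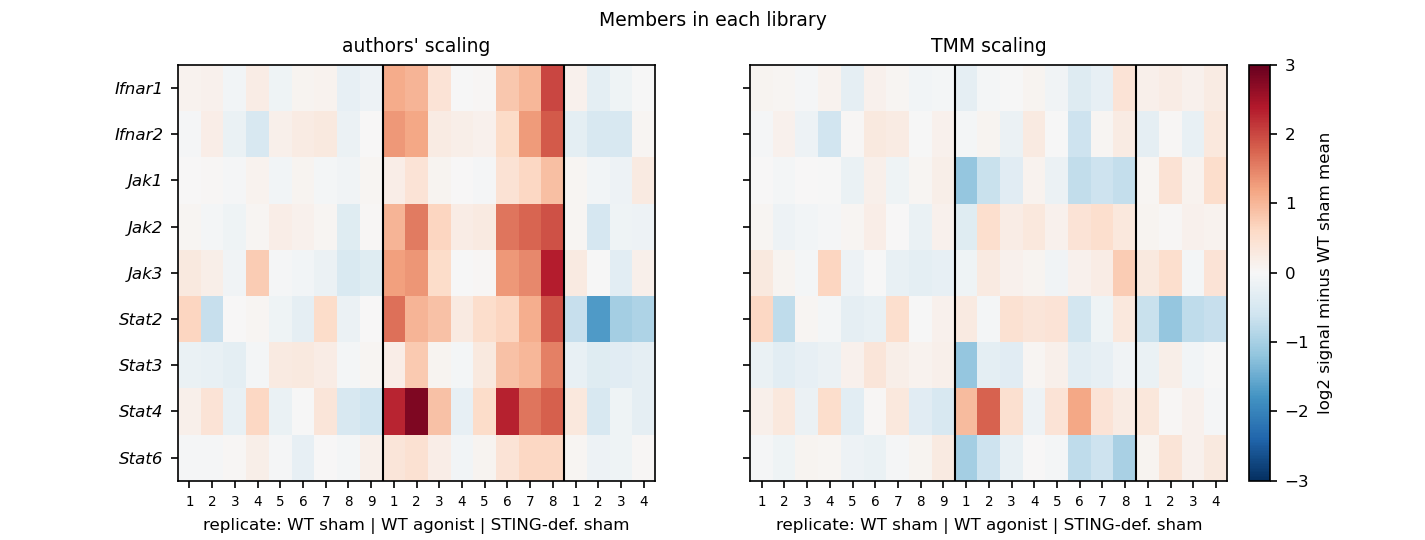
Log2 signal minus the wild-type sham mean of each of the 9 genes (rows) in each of the 21 libraries (columns, by group and replicate), on the authors' scale at left and after TMM scaling at right. Agonist replicates 4 and 5 are near the sham libraries in both, and Jak1 and Stat6 are low after TMM scaling in the other 6 agonist libraries.

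In STING-deficient hosts under sham, Stat2 was lower than in wild-type hosts and the other 8 genes were not called. Stat2 was thus the single member among the 2.76% of tested genes that were called lower, and 0 tested genes were called higher by limma, on the authors' scale or after TMM scaling, or by edgeR. At an unadjusted p below 0.05, 1 tested gene was higher and 63 were lower on the authors' scale, and 18 were higher and 55 lower after TMM scaling. With median centring limma called 1 gene higher, and with a fit of the compared groups alone 2. Its mean signal was 81.7 ± 22.2 (SD, n = 4) beside 175 ± 50.5 (n = 9), a log2 change of -1.08 ± 0.29 (adjusted p = 0.0456). The groups did not overlap, as was so in that direction for 5.66% of tested genes. They all but touched, however. The highest STING-deficient value was 104.5 from 122 counts, with an exact 95% Poisson interval of 86.8 to 125, and the lowest wild-type sham value was 105.0 from 115 counts, with an interval of 86.7 to 126.

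The call on Stat2 was near the threshold in the fit of all 21 libraries. After TMM scaling the log2 change was -0.82 ± 0.23 (adjusted p = 0.0518), and 1 of 4 STING-deficient libraries lay below the wild-type sham range. On leaving out 1 library the change ranged from -1.21 to -0.88 and the call was lost in 14 of 21 cases, which were all wild-type sham replicates but replicate 2, agonist replicates 3, 6 and 7, and STING-deficient replicates 2, 3 and 4. Without STING-deficient replicate 2, the lowest library for Stat2, the change was -0.88 (adjusted p = 0.357). A fit of the compared groups alone gave -1.08 ± 0.23 for Stat2 (adjusted p = 0.00806), with 80 of 689 tested genes called lower. In the fit of all 21 libraries the other members had log2 changes from -0.30 to 0.02 with adjusted p of 0.674 or more. Ifnar2 and Stat3 had -0.30 each, Jak2 had -0.18, Stat4 had -0.14, Ifnar1 had -0.08, Stat6 had -0.04, and Jak1 and Jak3 had 0.02 each.

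Ratios between genes of a library do not depend on its scaling. Relative to each of the other members, Stat2 had its lowest group mean in the STING-deficient tumors. Between agonist and sham tumors the order varied, since Stat2 was higher after agonist relative to Ifnar1, Ifnar2, Jak1, Stat3 and Stat6 and lower relative to Jak2, Jak3 and Stat4. The log2 ratio of Stat2 to Stat6 averaged -2.04 ± 0.39 in the 9 wild-type sham libraries (SD), -1.37 ± 0.41 (n = 8) in agonist and -3.10 ± 0.35 (n = 4) in STING-deficient tumors. The 4 STING-deficient values lay below the lowest wild-type sham value of -2.70, with the highest at -2.80, as was so for the ratio to Stat6 of 5.53% of genes. Of the agonist libraries 3 of 8 lay above the sham range. The log2 ratio of Stat2 to Stat3 was -1.72 ± 0.45 in wild-type sham, -1.30 ± 0.51 in agonist and -2.51 ± 0.39 in STING-deficient tumors, with 3 of the 4 STING-deficient libraries below the sham range. The log2 ratio of Stat2 to Stat4 was 3.37 ± 0.56 in wild-type sham, 2.83 ± 0.87 in agonist and 2.43 ± 0.24 in STING-deficient tumors, with 1 of the 4 STING-deficient libraries below the sham range.

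Among the kinases, Jak1 was low relative to Jak2 and Jak3 after agonist, while Jak2 and Jak3 kept within their sham ratio. Jak1 was also low relative to most of the panel, since only 18.6% of tested genes had a lower log2 change. On the authors' scale Jak1 had 0.33, Jak2 1.12 and Jak3 1.03, beside a panel median of 0.98. The log2 ratio of Jak1 to Jak2 was 2.33 ± 0.15 in the 9 wild-type sham libraries (SD), 1.53 ± 0.39 (n = 8) in agonist and 2.53 ± 0.25 (n = 4) in STING-deficient tumors. Agonist libraries lay below the sham range in 7 of 8 cases. Without agonist replicates 6 to 8 the mean ratio in the remaining 5 was 1.71, below the lowest sham value of 2.05. Jak1 to Jak3 was 4.09 ± 0.33 in wild-type sham and 3.38 ± 0.50 in agonist tumors, with 5 of 8 agonist libraries below the sham range. Jak2 to Jak3 was 1.77 ± 0.34, 1.85 ± 0.28 and 1.56 ± 0.28 in the 3 groups, with 0 agonist and 0 STING-deficient libraries outside the sham range. By the same measure Jak1 to Stat4 was 6.08 ± 0.42 in sham and 4.86 ± 0.91 in agonist tumors, with 7 of 8 libraries below the sham range, and Jak2 to Stat3 was -1.34 ± 0.19 and -0.80 ± 0.30, with 7 of 8 above it. These ratios are descriptions and carry no test, and the share of all genes with such ratios was not computed. Jak1 and Stat6, in contrast, had a ratio of 0.67 ± 0.14, 0.66 ± 0.14 and 0.72 ± 0.12 in the 3 groups, with an SD of 0.13 over all 21 libraries.

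**Figure D4:**
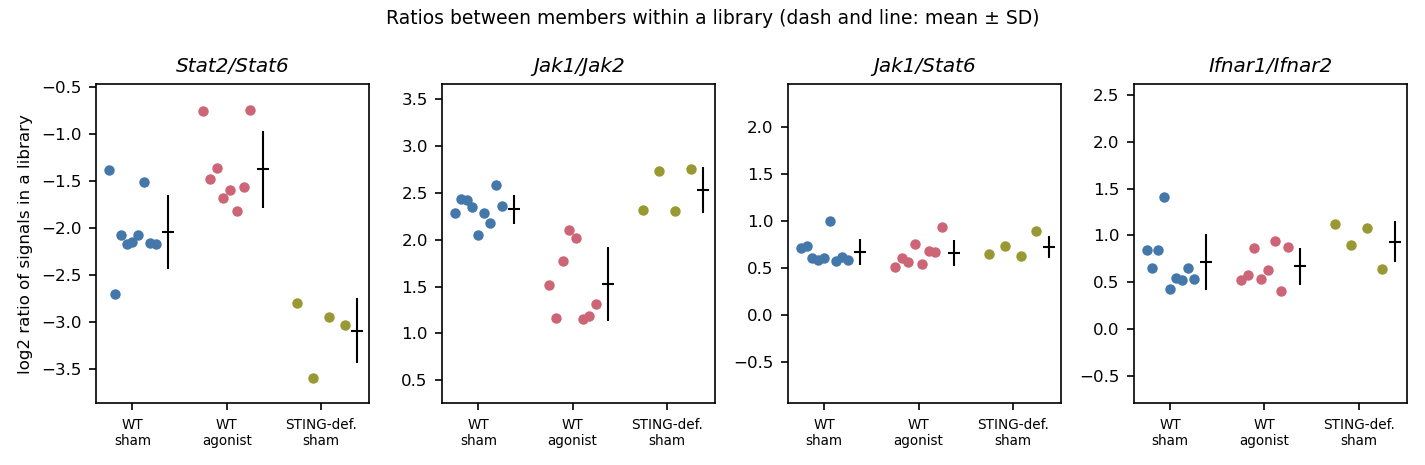
Log2 ratio of 2 genes within each library (points) by group, with the mean ± SD of each group beside its points. Stat2 to Stat6 is lowest in the 4 STING-deficient libraries, Jak1 to Jak2 is below the sham range in 7 of 8 agonist libraries, and Jak1 to Stat6 stays near 0.67 in all 3 groups.

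Promoter sequences are shown for Stat2, the member lower in STING-deficient hosts, for Jak2, which had no overlap after agonist, and for Jak1 and Stat6, which moved together. They are RefSeq sequence of the GRCm38.p6 build, from the window of 250 bases before to 50 after a transcript start, and each stops before the first transcribed base of the gene. Stat2 is chr10:128270248-128270497 on the plus strand, Jak2 is chr19:29251553-29251802 on the plus strand, Jak1 is chr4:101265283-101265473 on the minus strand and Stat6 is chr10:127642736-127642954 on the plus strand. Capitals mark matches to the 3 motifs searched, which the following paragraph spells out, and each sequence reads 5′ to 3′ in the direction of the gene.
Stat2: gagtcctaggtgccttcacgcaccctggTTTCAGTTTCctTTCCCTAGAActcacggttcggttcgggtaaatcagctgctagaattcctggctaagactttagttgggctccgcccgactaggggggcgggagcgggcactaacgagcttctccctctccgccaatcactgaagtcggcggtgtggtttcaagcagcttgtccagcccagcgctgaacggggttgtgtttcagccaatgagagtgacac
Jak2: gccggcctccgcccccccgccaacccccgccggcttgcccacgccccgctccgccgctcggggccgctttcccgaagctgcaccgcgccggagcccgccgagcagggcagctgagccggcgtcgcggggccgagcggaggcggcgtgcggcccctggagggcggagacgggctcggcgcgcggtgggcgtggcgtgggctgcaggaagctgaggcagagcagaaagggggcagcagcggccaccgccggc
Jak1: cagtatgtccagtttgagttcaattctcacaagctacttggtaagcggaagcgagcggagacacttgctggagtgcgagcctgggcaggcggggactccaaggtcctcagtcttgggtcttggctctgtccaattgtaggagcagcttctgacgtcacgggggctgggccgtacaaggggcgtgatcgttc
Stat6: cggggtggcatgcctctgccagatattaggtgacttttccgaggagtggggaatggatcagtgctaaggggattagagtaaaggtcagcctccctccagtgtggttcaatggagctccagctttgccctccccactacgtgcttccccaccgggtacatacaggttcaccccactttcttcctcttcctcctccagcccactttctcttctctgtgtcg

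The windows of all 9 members were matched by symbol, 10 in all, since Stat4 has 2. Both strands were searched for the core of the interferon-stimulated response element, GAAANNGAAA, which ISGF3 binds, for the gamma-activated site TTCNNNGAA, which STAT dimers bind, and for its form with a longer spacer, TTCNNNNGAA, which STAT6 prefers. Of 32851 promoter windows in the table, 3.44% held the first, 8.30% the second and 6.95% the third. Stat2 held the first motif at -222 to -213 from the transcript start, as TTTCAGTTTC on the strand shown, and the third at -210 to -201, as TTCCCTAGAA, with no overlap between them. The other match to the first motif was GAAAGTGAAA at -97 to -88 in the second Stat4 window. Ifnar2 held TTCCTGGAA at -214 to -206 and Ifnar1 held TTCACGGAA at -5 to 3. The windows of Jak1, Jak2, Jak3, Stat3 and Stat6 and the first window of Stat4 had no match. A match describes letters and not binding.

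Agonist tumors of wild-type hosts were also set against the STING-deficient sham tumors, the comparison named in the series design. On the authors' scale 8 of 9 members were higher in the agonist tumors, all but Jak1, where 73.6% of tested genes were higher. The largest change was that of Stat2, at 2.08 ± 0.29 (adjusted p = 2.35e-05), followed by Stat4 at 1.64 ± 0.43 (adjusted p = 0.0033) and Jak2 at 1.30 ± 0.28 (adjusted p = 0.000813). Ifnar2, Jak2, Stat2 and Stat3 did not overlap between these groups, as was so for 16.5% of tested genes. Jak1 had 0.31 ± 0.17 (adjusted p = 0.0949). With a fit of these 2 groups alone 6 members were called higher, as were 362 of 689 tested genes. Jak3 (adjusted p = 0.0547) and Stat6 (adjusted p = 0.138) lost their calls in that fit. After TMM scaling Stat2 was the 1 member that was higher, at 0.96 ± 0.23 (adjusted p = 0.00414), with 19.3% of tested genes higher. Jak1 and Stat6 were lower, at -0.83 ± 0.20 (adjusted p = 0.00414) and -0.76 ± 0.20 (adjusted p = 0.00528), with 19.4% of tested genes lower. These 3 TMM calls held on leaving out each of the 21 libraries. Stat2 was higher in every agonist than in every STING-deficient library also after TMM scaling, as was so for 4.79% of tested genes, and Stat6 lower, as was so for 4.93%. This comparison shares its agonist libraries with the first and its STING-deficient libraries with the second, so the 3 are not independent.

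The genes whose pattern was most like each member were named by the SD over the 21 libraries of the difference between both genes in log2(value + 1), which through the added 1 still depends on the scaling. For Stat4 and Cd247 it was 0.329, and 0.217 with a pseudocount of 10. Over the 687 other genes its median ranged from 0.635 for Ifnar1 to 0.770 for Stat2, and a smaller SD means a closer pattern. Jak1 and Stat6 were each other's nearest gene at 0.130, followed by Ets1 at 0.153 for Jak1 and Runx1 at 0.159 for Stat6. Ifnar1 was nearest to Tgfb1 at 0.160 and Lcp1 at 0.188, and Ifnar2 to Cd68 at 0.215 and Irf2 at 0.239. Jak2 was nearest to Relb at 0.205 and Ly96 at 0.240, and Jak3 to Tnfrsf1a at 0.207 and Ifnar1 at 0.239. Stat3 was nearest to Il13ra1 at 0.191 and Il1r1 at 0.239. Stat2 had no gene as close, with Fcgr1 at 0.306 and Bst2 at 0.311, nor had Stat4, with Cd247 at 0.329 and Csf2rb at 0.334. With a pseudocount of 10 Stat4 was not set apart, at 0.217 with Cd247 beside 0.211 for Ifnar2 with Cd68. Stat2 still was, at 0.303 with Fcgr1.

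The other genes of the pathway were taken from lists chosen by their known roles, several of which share genes. Their counts are read beside all tested genes, of which 71.1% were higher after agonist on the authors' scale. After TMM scaling 10.2% were higher and 16.5% lower. Of the type I interferon ligands, 2 of 3 tested were higher after agonist on the authors' scale, Ifna1 at 1.21 and Ifna4 at 0.96, while 0 were called after TMM scaling by limma, at an unadjusted p below 0.05 or by edgeR. Probes of the Ifna family are similar to each other, so these values are uncertain between family members. Of the cytokine receptor chains that use JAK kinases, 17 of 18 were higher after agonist with a median of 1.30, and 6 were higher after TMM scaling with a median of 0.44. Among these 6 were Il12rb1, a chain of the interleukin-12 receptor that signals through STAT4, at 1.99 and after TMM scaling 1.19 (adjusted p = 0.00947), and Il2rg, the partner of JAK3, at 1.63 and after TMM scaling 0.77 (adjusted p = 0.0186). Csf2rb, the shared GM-CSF and interleukin-3 receptor chain that works through JAK2, had 1.48 and after TMM scaling 0.62 (adjusted p = 0.0342). In STING-deficient tumors 0 of the 18 chains were called by limma, at an unadjusted p below 0.05 or by edgeR.

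All 4 inhibitors of the pathway on the panel were higher after agonist on the authors' scale, with a median of 1.11, where 71.1% of tested genes were higher. Only Ptprc, the CD45 phosphatase of blood cells, was also higher after TMM scaling, at 0.81 (adjusted p = 0.0141), where 10.2% of tested genes were higher. Socs1 and Socs3, feedback inhibitors of JAK kinases, had 0.66 and 0.86, and after TMM scaling -0.20 and -0.00087. Usp18, which blocks signaling at IFNAR2, was the inhibitor called lower in STING-deficient tumors. Its mean signal was 10.7 there beside 69.5 in wild-type sham and 210.4 in agonist tumors, a log2 change of -2.49 ± 0.50 under deficiency (adjusted p = 0.0054) and of -2.27 after TMM scaling (adjusted p = 0.000305).

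Targets of ISGF3 were lower along with Stat2 in STING-deficient hosts. Of 20 tested, 14 were lower under sham where the host lacked STING, with a list median of -1.98 beside -0.28 for the panel, and 15 were lower after TMM scaling, with a median of -1.78. On each of these scales 2.76% of all tested genes were lower. After agonist 18 of the 20 targets were higher, with a median of 1.31, and 3 after TMM scaling, with a median of 0.45. The shares of all tested genes higher after agonist were 71.1% and 10.2%. Oas2, an antiviral sensor of double-stranded RNA, fell by 2.34 ± 0.51 on the log2 scale under deficiency (adjusted p = 0.0104) and rose by 1.72 after agonist, or 0.85 after TMM scaling (adjusted p = 0.0285). Ifih1, the RNA sensor MDA5, fell by 1.59 ± 0.40 (adjusted p = 0.0282) and rose by 1.45, or 0.58 after TMM scaling (adjusted p = 0.0426). Oasl1 fell by 2.61 (adjusted p = 0.021) and Zbp1 by 1.83 (adjusted p = 0.0479) under deficiency.

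Few targets of the other STATs were called between host genotypes. Of 13 targets of interferon-gamma signaling, 13 were higher after agonist with a median of 1.35, 1 after TMM scaling, and 1 was lower under deficiency. Beside these counts stand 71.1%, 10.2% and 2.76% of all tested genes, in that order. A further 16.5% of tested genes were lower after agonist with TMM scaling. Of 8 STAT4 targets 7 were higher after agonist with a median of 1.36. After TMM scaling 3 were higher, namely Il18r1 at 1.10 (adjusted p = 0.00947), Gzmb at 1.11 (adjusted p = 0.0144) and Prf1 at 0.95 (adjusted p = 0.0271), which encode an interleukin-18 receptor chain and the killing proteins granzyme B and perforin, and 1 was lower. Of 9 STAT6 targets 4 were higher and 0 lower on the authors' scale with a median of 0.78, and 1 was higher, the chemokine Ccl17 at 0.86 (adjusted p = 0.011), and 3 lower after TMM scaling with a median of -0.08. Of 12 STAT3 targets 5 were higher and 1 lower with a median of 0.73, and 0 were higher and 4 lower after TMM scaling with a median of -0.14. The 1 lower on the authors' scale was Birc5, which encodes survivin, at -0.40 (adjusted p = 0.014). Between host genotypes under sham, 0 STAT3, STAT4 and STAT6 targets were called by limma or edgeR. At an unadjusted p below 0.05 only STAT6 targets among these were lower, 2 on the authors' scale and 1 after TMM scaling. Of the 13 interferon-gamma targets 4 were lower at that threshold (30.8%), and 3 after TMM scaling (23.1%). The shares of all tested genes were 9.14% and 7.98%. Many of these genes have other regulators, and the lists do not measure STAT activity.

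**Figure D5:**
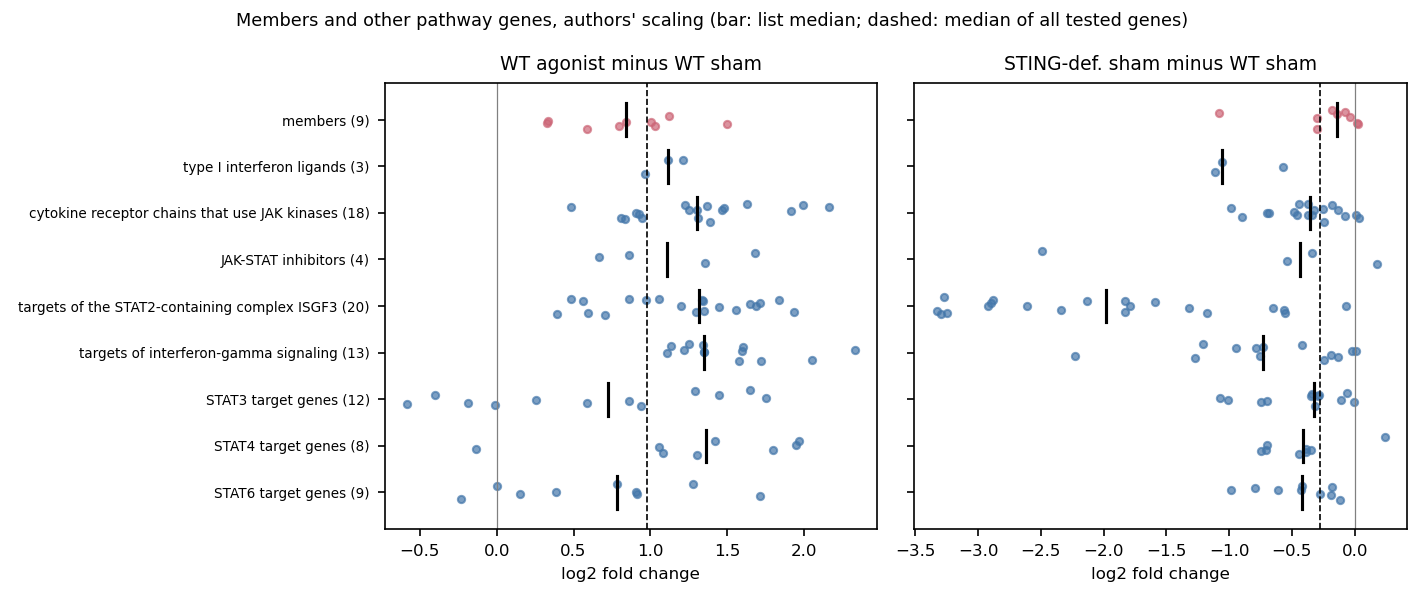
Log2 fold change on the authors' scale (horizontal axis) of the 9 members and of each tested gene in 8 pathway lists (points), with a bar at each list's median and a dashed line at the median of all tested genes, after agonist at left and under STING deficiency at right. The ISGF3 targets have a median of -1.98 under deficiency, beside -0.14 for the members.

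Markers of T cells, NK cells, neutrophils and macrophages were summed beside these results, on the authors' scale. The summed signal of 14 T cell markers was 270 to 382 in wild-type sham, 318 to 1707 in agonist and 182 to 420 in STING-deficient tumors, and that of 7 NK cell markers was 158 to 499, 333 to 2107 and 88.0 to 461. After agonist 13 of 14 T cell and 7 of 7 NK cell markers were higher on the authors' scale, and 6 and 4 after TMM scaling. Of all tested genes 71.1% were higher on the authors' scale and 10.2% after TMM scaling. The 5 neutrophil markers summed to 2397 to 9115, 3528 to 27467 and 1504 to 2594, and the 9 markers of macrophages and monocytes to 4414 to 5642, 4318 to 17246 and 4178 to 5653. S100a8 alone had a mean of 4429 in wild-type sham tumors, beside 16.1 to 316 for the other neutrophil markers. Cd163 was the highest macrophage and monocyte marker there, with a mean of 2141. After agonist 3 of 5 neutrophil and 7 of 9 macrophage and monocyte markers were higher on the authors' scale. After TMM scaling 1 neutrophil marker was higher, and of the macrophage and monocyte markers 0 were higher and 2 lower. Of other lists, 6 of 7 endothelial, 4 of 5 B cell and 3 of 4 dendritic cell markers were higher on the authors' scale. So were 3 of 5 fibroblast and pericyte and 3 of 3 epithelial markers. After TMM scaling 2 of these B cell markers were higher and 0 of the rest. Of 2 proliferating cell markers 1 was higher on the authors' scale and Birc5, also on the list of STAT3 targets, was lower. After TMM scaling 0 of these 2 were higher and Birc5 was lower. In STING-deficient tumors 0 markers of the T cell, NK cell, neutrophil and macrophage lists were called by limma or edgeR. At an unadjusted p below 0.05, 3 neutrophil, 1 T cell and 1 NK cell marker of these were lower (4, 1 and 1 after TMM scaling). No value on the panel was listed at 0. The part of these cell types in the results for Stat4, Jak3, Jak2 and Stat2 was not tested.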

How the data were processed

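RNA of 21 whole mouse tumors was extracted with TRIzol, per the labels' protocols, and measured on a NanoString panel of 750 genes, per the series design. The authors deposited a matrix of normalized signal values on a linear scale. Software, control probes and scaling set are not given in the sources used for this text, and no genome build is named. Files for single libraries differed from the matrix by at most 0.05 and served only as that check. In each library the deposited signal values were whole multiples of a step of 0.65 to 1.41 (98.4% to 100% of values within 0.1 of a step), so counts could be recovered and set the counting precision. No value was 0 and 2 cells, both for Hif1a, were blank. All 70 pairs of libraries within a group differed by more than sampling noise, with a chi-square of at least 6.63 per degree of freedom.

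Values were taken as log2(value + 1), which understates changes of low genes. Genes with a value of at least 20 in at least 4 libraries were tested, 689 of 750, and all 9 members passed. Genes high in agonist libraries alone can pass this filter. A model with a mean per group was fitted to all 21 libraries with limma 3.58.1 (eBayes with trend and robust, R 4.3.3), and its 3 contrasts were tested two-sided, with p-values adjusted by Benjamini-Hochberg over all tested genes at 0.05. Unless edgeR is named, an adjusted p comes from limma. TMM factors came from edgeR 4.0.16 on the deposited values, and edgeR's quasi-likelihood test on the recovered counts, with TMM, was an alternative, as were median centring, a pseudocount of 10, no filter, the replicate block, a fit of the compared groups alone and leaving out libraries. Leaving out libraries under TMM scaling was added after seeing the data. Replicate numbers gave correlations of deviations from the group means of -0.20 to 0.61 and were not used as pairs. The members, lists and alternatives were chosen with earlier results of these data known. Genes named outside the members are up to 4 a list, by the smallest adjusted p after agonist, and the 2 most alike per member. Foxj1, S100a8, Cd163 and Tmem173 are named as well. Which of the eligible list genes the text names was chosen after values were seen. Of 750 accessions 727, those of all 9 members among them, matched the RefSeq table. The fit was tested on simulated data.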

Additional observations from a re-analysis of the deposited data

How the results depend on the processing

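The counts of members called changed with the scaling and with the libraries included. The 9 after agonist, all higher, became 1 higher and 2 lower with TMM scaling or edgeR on recovered counts. With median centring they became 0 higher and 2 lower. Of tested genes 70 were higher and 114 lower with TMM scaling, 116 and 81 with edgeR, and 62 and 128 with median centring. The 8 against STING-deficient tumors, all higher, became 1 higher and 2 lower with TMM scaling or edgeR. With median centring they became 1 higher and 3 lower. In that comparison 133 tested genes were higher and 134 lower with TMM scaling, 161 and 124 with edgeR, and 86 and 178 with median centring. The 1 under deficiency became 0 with TMM or median centring. That 1 also became 0 with a pseudocount of 10, with no filter and with the replicate block. In that order of settings 19, 17, 11, 15 and 11 tested genes were lower, and 0, 1, 0, 0 and 0 higher. Leaving out 1 library gave 8 to 9, 0 to 1 and 7 to 9. Without agonist replicates 6 to 8 the count after agonist was 0, with TMM scaling too. Of all tested genes 3 were then higher and 0 lower, and with TMM scaling 0 were called. Against STING-deficient tumors the count of members was 3 with both changes, 1 higher and 2 lower, beside 79 tested genes higher and 95 lower.

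Directions turned as follows, as log2 changes. After agonist, in the order Ifnar1, Ifnar2, Jak1, Stat3 and Stat6, TMM scaling gave -0.07, -0.03, -0.54, -0.28 and -0.53, median centring -0.11, -0.06, -0.58, -0.32 and -0.57, edgeR -0.08, -0.05, -0.52, -0.28 and -0.51, and TMM without agonist replicates 6 to 8 -0.11, -0.02, -0.49, -0.36 and -0.42. Under deficiency, in the order Ifnar1, Jak2, Stat4 and Stat6, TMM gave 0.19, 0.08, 0.11 and 0.23, edgeR 0.17, 0.06, 0.07 and 0.21, and median centring 0.32, 0.22, 0.27 and 0.36, with Ifnar2 at 0.11 and Stat3 at 0.10 as well. Against STING-deficient tumors, in the order Ifnar1, Jak1, Jak3, Stat3 and Stat6, TMM gave -0.26, -0.83, -0.12, -0.25 and -0.76, edgeR -0.25, -0.80, -0.12, -0.22 and -0.72 with Ifnar2 at -0.0012, median centring -0.43, -1.0, -0.30, -0.42 and -0.93 with Ifnar2 at -0.17 and Jak2 at -0.0033, and TMM without agonist replicates 6 to 8 -0.31, -0.79, -0.30, -0.34 and -0.66 with Ifnar2 at -0.0045. Jak3 and Jak1 under deficiency, at 0.02 each, ranged from -0.06 to 0.13 and from -0.06 to 0.07 on leaving out 1 library. The cause of these turns was not tested beyond the change of scale.

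The replicate numbers do not pair the samples. With the replicate block 7 members were called after agonist and 6 against STING-deficient tumors, and Jak3 under deficiency was -0.009. Of the 689 tested genes 421 were higher and 3 lower in the first of these comparisons, and 401 and 2 in the second. Stat2 under deficiency was -1.06 with the block (adjusted p = 0.0907), -0.88 with edgeR (adjusted p = 0.0426) and -0.68 with median centring (adjusted p = 0.118). Jak1 after agonist lost its call without sham replicate 8 or agonist replicate 6, 7 or 8, ranging from 0.25 to 0.38. Stat6 against STING-deficient tumors lost its call without agonist replicate 7 or STING-deficient replicate 2 or 3, ranging from 0.33 to 0.43. Without agonist replicates 6 to 8, Stat6 (adjusted p = 0.122) and Jak3 (adjusted p = 0.0933) were not called in that comparison. Both also lost their calls with a fit of the compared groups alone. With a pseudocount of 10 the second nearest gene of Ifnar1 and of Stat4 changed, to Ifitm2 and Klrg1. Depth limits Stat4 most, since its sham values rest on few counts, and the group of 4 STING-deficient libraries limits the precision of every comparison that uses it.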
